A study of Homo sapiens with 20 samples.

Results

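The collagen genes were studied across untreated U2-OS cells, cells at 1.5 h and 7 days after irradiation, and cells with knockdown of NFKBIA. Members were all entries of the deposited table of counts whose symbol is COL, a number, A and a number, which gave 43 of 20314 genes. By the structure their proteins form, 11 were fibrillar, 6 belonged to basement membranes and 26 were of other classes.

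RNA-seq was done with stranded mRNA libraries from total RNA of U2-OS, a human osteosarcoma cell line, in 4 groups of 5 libraries. The untreated cells received no irradiation, and their labels name no vector or doxycycline. The irradiated cells received a single dose of 20 Gy and were harvested 1.5 h or 7 days later, times at which the study places its first and second phase of NF-κB activity. The NFKBIA knockdown used an shRNA and carried no label of irradiation. By the methods of the study, such shRNA was doxycycline-inducible and its cells were selected as clones with puromycin, and a scrambled shRNA served as control elsewhere but was not among the 20 libraries. Vector, doxycycline and clone therefore cannot be told apart from loss of NFKBIA here. The 5 libraries of a group are called biological replicates in the study, with no record of when each culture was grown.

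Each library held between 22535659 and 40390961 counts. The smallest was untreated replicate 5, which also stood apart from its group. Its median correlation with the other untreated libraries, across genes on the log2 scale, was 0.979, against 0.989 to 0.993 for the other 4. It was the only untreated library on sequencing lane 3, with replicates 1 to 3 of the 1.5 h group, while untreated replicates 1 to 4 filled lane 2. Lane 4 held replicates 4 and 5 of the 1.5 h group and replicates 1 and 2 of the 7 day group, lane 5 held replicates 3 to 5 of the 7 day group and knockdown replicate 1, and lane 6 held knockdown replicates 2 to 5. So 7 days against 1.5 h could be compared within lane 4 and 7 days against knockdown within lane 5, with 2 libraries against 2 in the former and 3 against 1 in the latter. No lane held both untreated cells and either 7 day or knockdown cells, so there lane and group can be separated only by a fit with lane as a term. That fit ties untreated cells to the rest through untreated replicate 5.

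The osteosarcoma label was checked against 9 osteoblast genes. RUNX2, the transcription factor that sets the bone lineage, was the most abundant, with a mean of 101.3 CPM (counts per 1000000 counts, scaled by TMM factors). The summed level of the 9 ran from 148.9 to 322.6 CPM in untreated libraries, 139 to 151 at 1.5 h, 246 to 264 at 7 days and 146 to 172 in the knockdown. SP7, IBSP and DLX5 had at most 3, 1 and 0 counts in any library. Other genes of the list were present, with ALPL, SPP1 and BGLAP at means of 26.9, 12.03 and 1.147 CPM in untreated cells, 45.4, 74.3 and 0.876 CPM at 7 days and 6.84, 10.9 and 0.848 CPM in the knockdown. ALPL was called lower in the knockdown, at -1.96, the 1 call there among 6 tested (16.7%, beside 7.53% of all genes tested). At 7 days 3 of the 6 were called higher (50%, beside 16.7%) and 0 lower. At 1.5 h 0 were called higher and 1 lower (16.7%, beside 1.57%). Of 6 cartilage genes, HAPLN1 had the highest mean over the 20 libraries, at 209.7 CPM, and THY1 led the fibroblast genes at 166 CPM. SOX9 was above HAPLN1 at 7 days (147.2 against 56.98 CPM) and in the knockdown (150.9 against 139.5 CPM). The lists for endothelial, haematopoietic and epithelial cells were led by TEK at 8.15 CPM, CD68 at 7.56 CPM and EPCAM at 2.89 CPM. Some summed levels of these lists moved with the groups, and the part of the marked cell types in the collagen values was not tested. From untreated cells to 7 days and knockdown, the cartilage sum went from 461 to 753 CPM to 212 to 226 and 305 to 313 CPM. The fibroblast sum went from 295 to 451 CPM to 330 to 365 and 251 to 262 CPM, though its members went opposite ways at 7 days. Mean PDGFRB went from 97.45 to 32.64 CPM and PDGFRA from 23.43 to 10.65 CPM, while FAP went from 27.71 to 105.3 CPM. Of 5 fibroblast genes tested, 1 was called higher (20%, beside 16.7%) and 2 lower (40%, beside 14.4%) at 7 days. The endothelial sum stayed between 8.14 and 11.1 CPM in untreated, 7 day and knockdown libraries. The haematopoietic sum went from 2.38 to 8.51 CPM to 22.9 to 27.8 and 2.44 to 3.50 CPM, through CD68.

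Collagens are secreted or membrane proteins in which 3 chains wind into a triple helix. Fibrillar collagens build the fibers of bone, skin and tendon, and type I, made from COL1A1 and COL1A2 chains, is the main protein of bone matrix. Type IV forms the sheet of basement membranes, and the remaining types link fibrils, anchor epithelia, form beaded filaments or hexagonal nets, or span the cell membrane. Many types are mixtures of chains, so the level of each chain's mRNA bears on which trimers a cell can make.

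NFKBIA, which encodes the NF-κB inhibitor IκBα, was read first to check the labels. It had 28.6, 23.5, 27.4, 34.99 and 41.95 CPM in untreated libraries and 13.04, 11.2, 12.1, 11.9 and 12.4 CPM in the knockdown. Every knockdown library lay below every untreated library, and NFKBIA fell by 1.36 ± 0.11 on the log2 scale (log2 fold change ± SE). At 1.5 h post-IR it had 88.3, 76.3, 79.96, 78.8 and 86.95 CPM, and at 7 days 30.4, 28.4, 32.4, 31.98 and 30.5 CPM. The 1.5 h libraries were all above the untreated ones, and the 7 day libraries lay within the untreated range.

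Collagens together took under 1% of the counts in every library, with the smallest share in the knockdown. Their share of all counts was 0.730, 0.780, 0.798, 0.622 and 0.786% in untreated libraries and 0.689, 0.737, 0.747, 0.741 and 0.746% at 1.5 h post-IR. It was 0.624, 0.587, 0.564, 0.606 and 0.633% at 7 days and 0.505, 0.507, 0.491, 0.52 and 0.492% in the knockdown. All knockdown libraries lay below all others, while the 7 day range overlapped that of untreated cells through untreated replicate 4. COL1A1 had the most counts of any collagen in every untreated and 1.5 h library, and COL4A2 in every 7 day and knockdown library. In bulk RNA, fewer cells with a transcript and less of it per cell cannot be told apart.

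**Figure D1:**
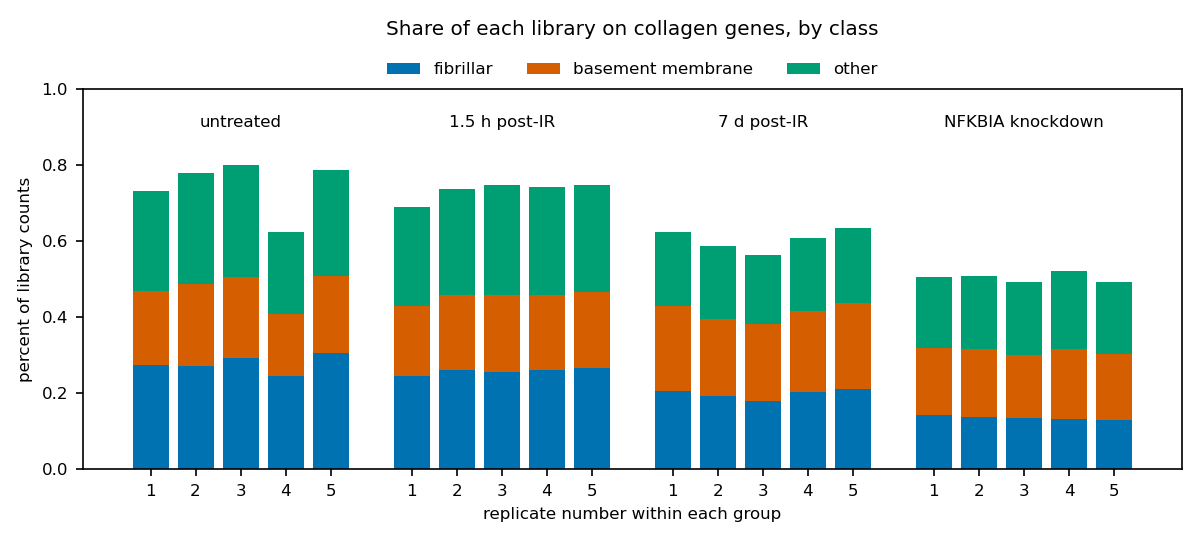
Counts on the 43 collagen genes as a percent of all counts in each of the 20 libraries, stacked by class. The share was between 0.491 and 0.52% in the knockdown, below every other library.

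Per length of transcript, counts per kb of exon scaled to a sum of 1000000 in each library, untreated cells had COL1A1 at 868 ± 114 (mean ± SD, n = 5) and COL4A2 at 353 ± 51.1. With the gene lengths in the deposited table, COL4A2 came to 829.7 ± 120 and COL1A1 to 834 ± 110, so with those lengths this pair did not differ beyond its spread. The type VI chains COL6A1, COL6A3 and COL6A2 followed at 278 ± 49, 267 ± 64.1 and 256 ± 14.5, which do not differ beyond their spread. COL12A1, COL3A1 and COL5A1 were at 137 ± 31.5, 136 ± 26.2 and 129 ± 21.6, again within their spread. COL1A2 was at 0.159 ± 0.0353, in place 33 of 43. By this measure untreated U2-OS cells transcribed mainly types I, IV and VI.

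In all, 38 of the 43 collagens passed a filter on low counts and were tested among 14992 genes. A gene was called when its log2 fold change exceeded 0.5 in size and its Benjamini-Hochberg adjusted p, over all genes tested with edgeR's quasi-likelihood test, was under 0.05. COL2A1, COL9A1, COL9A3, COL10A1 and COL23A1 did not pass, with at most 13, 3, 17, 8 and 5 counts in any library. COL19A1, COL6A5, COL6A6 and COL25A1 had low counts outside the 7 day group and passed through it alone. For them a difference was therefore built into being tested. The SEs of their comparisons with 7 days are not tests, and no p or interval is given there for these 4. In a fit with no filter, which does not select them so, these 4 were called higher at 7 days than in untreated cells, by 4.455, 3.79, 2.85 and 3.12 in that order. Of the 38, 31 were called in at least 1 of 5 comparisons (81.6%, beside 44% of all genes tested) and 7 in none. The 4 that passed through the 7 day group are among the 31.

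At 1.5 h post-IR the collagens were close to untreated cells. The comparison asks what the first phase changes. Of 38 tested collagens 1 rose, against 2.08% of all genes tested, and 0 fell, against 1.57%. Without regard to multiple testing, at an unadjusted p under 0.05 with edgeR, 3 were higher and 2 were lower, beside 15.7% and 17.7% of all genes, and DESeq2 also called 1 higher and 0 lower, beside 2.03% and 1.76%. The median log2 fold change of the 38 was 0.04, beside -0.03 for all genes. Without untreated replicate 1 the number that rose was 2, with COL19A1 added. With lane as a term, which sets the 1.5 h group mainly against untreated replicate 5, 4 were higher (COL3A1 0.57, COL7A1 0.52, COL8A2 1.04 and COL19A1 5.81) and 4 lower (COL1A1 -0.5, COL6A1 -0.57, COL27A1 -0.64 and COL20A1 -1.27). That is 10.5% each, beside 11.9% higher and 13.6% lower of all genes in the same fit. Untreated replicate 5 had 0 counts of COL19A1, so 5.81 does not measure the size of that change.

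At 7 days the picture was different, with large changes in both directions inside every class. This comparison asks what distinguishes the senescent second phase. Of 38 tested collagens 12 rose, against 16.7% of all genes, and 12 fell, against 14.4%, shares of 31.6% each. Of the 12 that rose, 4 had passed the filter through the 7 day group alone, so that share was partly built in. Among the 30 collagens with at least 10 counts in every library, 7 rose (23.3%, beside 13.8% of all genes so filtered) and 12 fell (40%, beside 14.7%), with a median log2 fold change of -0.34. The median of the 38 was 0.05, beside 0.01 for all genes. With a lane term 9 of the 38 were higher (23.7%, beside 21.8% of all genes in that fit). In that fit 12 were lower (31.6%, beside 19.5%), with a median of -0.17 over the 38. COL15A1, COL21A1 and COL27A1 lost the call of higher. COL9A2 and COL18A1 lost the call of lower, and COL1A1 and COL5A1 gained it. By class and without a lane term, 2 rose and 4 fell of 10 fibrillar genes. Of 6 basement membrane genes 2 rose and 1 fell, and of 22 others 8 rose and 7 fell.

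The NFKBIA knockdown libraries had mainly falls against untreated cells. The comparison asks which of the second-phase changes appear without irradiation. Of 38 tested collagens 11 fell, against 7.53% of all genes, and 1 rose, against 5.18%. The median log2 fold change was -0.36, beside -0.01 for all genes. Those that fell were 4 of 10 fibrillar, 2 of 6 basement membrane and 5 of 22 other collagens. The 1.5 h, 7 day and knockdown comparisons share the same untreated libraries, so their values are given side by side and were not related to each other. With a lane term 10 of the 38 were lower in the knockdown (26.3%, beside 14% of all genes in that fit). In that fit 1 was higher (2.63%, beside 13.3%). These were not all the same genes. COL5A2, COL5A3, COL4A3 and COL16A1 lost the call of lower, and COL6A1, COL22A1 and COL27A1 gained it. COL21A1 lost the call of higher, and COL7A1 gained it. Without untreated replicate 5 the calls were 12 higher and 13 lower at 7 days, beside 16.4% and 14.2% of all genes, and 1 higher and 11 lower in the knockdown, beside 5.03% and 6.89%.

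The remaining comparisons set 7 days against the other treated groups. Against 1.5 h, 14 collagens were higher, beside 16.8% of all genes, and 11 lower, beside 12.6%, with a median of 0.12. Against the knockdown 15 were higher, beside 15.8%, and 5 lower, beside 9.89%, with a median of 0.32. The same 4 genes are among those higher in both. With at least 10 counts in every library, 8 of 30 were higher and 11 lower against 1.5 h, beside 14.2% and 12.3% of all genes so filtered, with a median of -0.25, and 8 were higher and 5 lower against the knockdown, beside 13.2% and 9.25%, with a median of 0.19. With a lane term 12 of the 38 were higher and 11 lower against 1.5 h, beside 15.7% and 11.8% of all genes, and 11 higher and 5 lower against the knockdown, beside 14.5% and 9.14%.

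**Figure D2:**
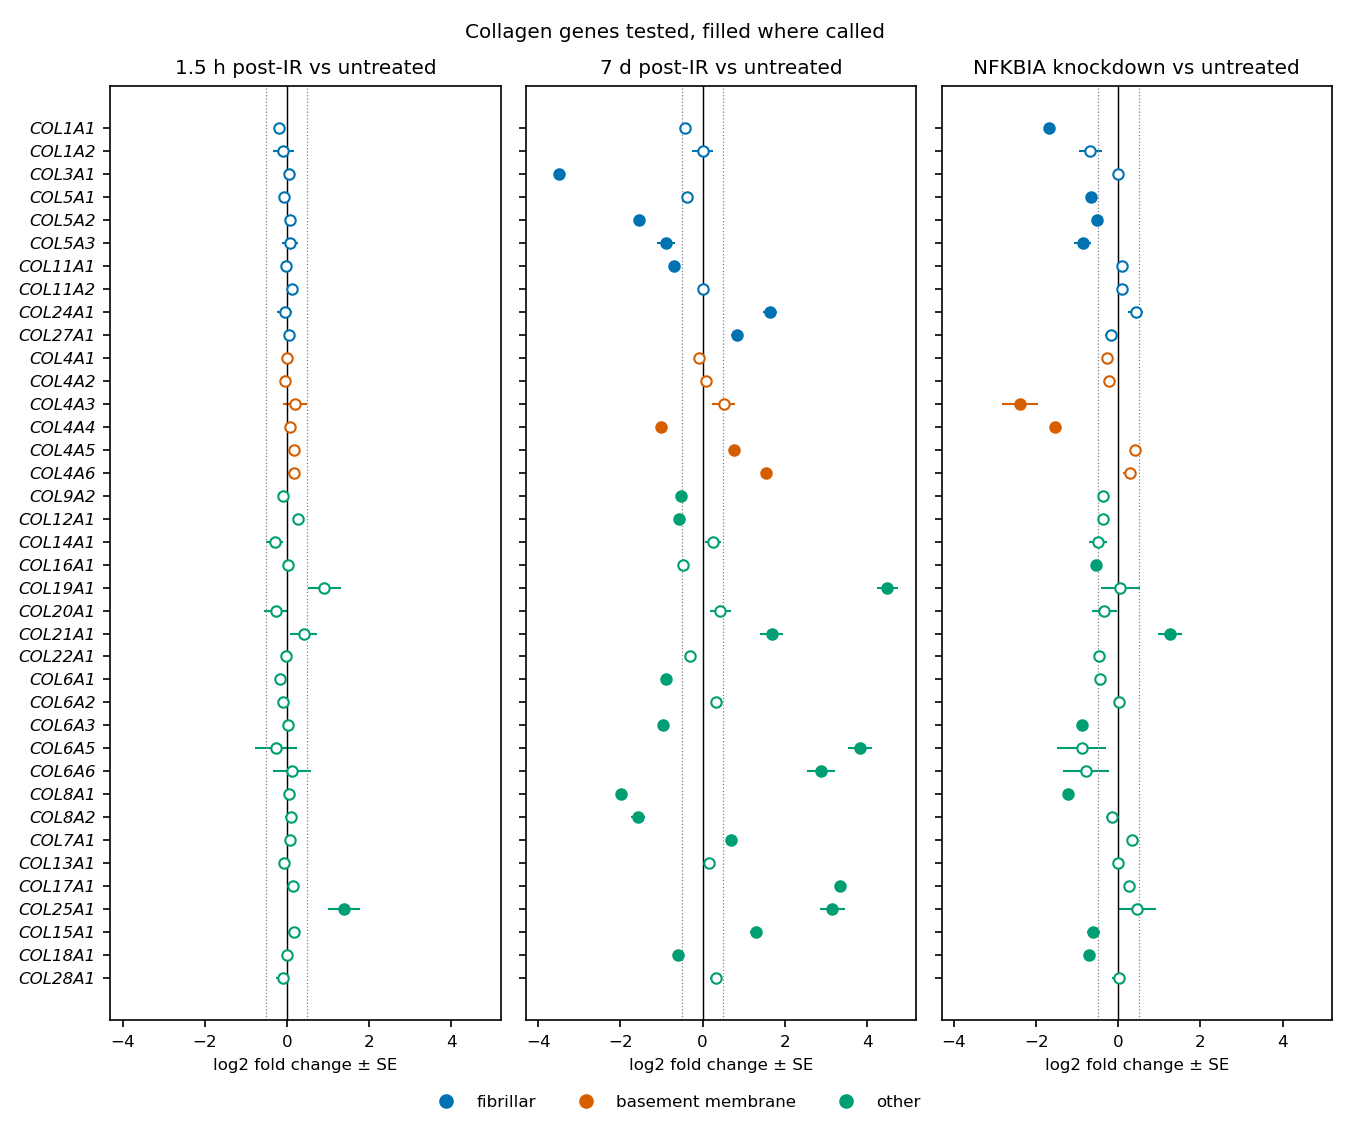
Log2 fold change with its SE for the 38 tested collagens in each comparison with untreated cells, coloured by class, filled where called, with dotted lines at 0.5 and -0.5. At 7 days the points spread from -3.49 for COL3A1 to 4.49 for COL19A1.

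Type I collagen was the most strongly counted fibrillar collagen. COL1A1 (ENSG00000108821), the chain present in every type I trimer, had 1901, 1838, 2020.1, 1733 and 2375 CPM in untreated libraries and 1633, 1719, 1686, 1749 and 1794 CPM at 1.5 h post-IR. It had 1544, 1425, 1326, 1498 and 1542 CPM at 7 days and 657, 651, 601, 598 and 576 CPM in the knockdown. Knockdown libraries were far below all the others, the 7 day libraries were all below the untreated ones, and the 1.5 h libraries overlapped the untreated ones. COL1A1 fell in the knockdown by 1.68 ± 0.07 on the log2 scale (adjusted p = 4.4e-13, lower in 5 of 5 libraries). At 7 days the log2 fold change was -0.43 ± 0.07, short of the threshold on size though the adjusted p was 1.9e-05. When lane was a term it was -0.76, past the threshold, and at 1.5 h the same fit gave -0.5 with a call of lower. Against the knockdown, COL1A1 at 7 days was higher by 1.25 ± 0.07, and by 1.14 within lane 5.

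Its partner COL1A2, which supplies the remaining chain of the usual type I trimer, was near the limit of detection. Counts of COL1A2 were 16, 13, 16, 9 and 11 in untreated libraries and 14, 12, 8, 13 and 21 at 1.5 h. They were 13, 10, 15, 14 and 13 at 7 days and 12, 6, 4, 7 and 10 in the knockdown. All groups overlapped, and per length COL1A1 exceeded COL1A2 by 5577-fold on average in untreated cells. The difference between 7 days and knockdown was 0.69 ± 0.28 (adjusted p = 0.04195), and 0.28 within lane 5. That call did not hold with DESeq2, without the filter, with lane as a term (0.31), or without any of 1.5 h replicates 1 (0.67), 2 (0.67) or 4 (0.67), 7 day replicates 1 (0.70), 3 (0.65), 4 (0.65) or 5 (0.64) or knockdown replicates 2 (0.57), 3 (0.48) or 4 (0.68).

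Type III collagen is a homotrimer of COL3A1 chains that forms fine fibrils beside type I. COL3A1 (ENSG00000168542) had 231, 213, 239, 239 and 145 CPM in untreated libraries and 19.2, 16.1, 18.1, 19.1 and 22.7 CPM at 7 days. It had 206, 229, 213, 225 and 233 CPM at 1.5 h and 240.2, 211, 222, 191 and 204 CPM in the knockdown. Every 7 day library was several times below every other library, and the other groups overlapped, with untreated replicate 5 lowest among them. COL3A1 fell at 7 days by 3.49 ± 0.12 (adjusted p = 9.9e-16, lower in 5 of 5 libraries). An exact permutation test over the libraries, two-sided, gave p = 0.00794, the smallest that 5 against 5 allows, and the same p holds for each gene below whose groups are said to be fully apart, other than the 4 that passed the filter through the 7 day group alone. Without untreated replicate 5 the log2 fold change was -3.62. Within lane 4, 7 days differed from 1.5 h by -3.69, and within lane 5 from the knockdown by -3.59. In the knockdown the log2 fold change was 0.00 ± 0.11. Against the knockdown, COL3A1 at 7 days was lower by a log2 fold change of -3.49 ± 0.12, so the fall was not shared by the knockdown libraries.

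Type V collagen starts fibrils and sets their width, usually as trimers of COL5A1 and COL5A2 chains. COL5A1 had 314, 344, 357, 263 and 389 CPM in untreated libraries and 306, 323, 313, 317 and 334 CPM at 1.5 h. At 7 days it had 269.9, 249, 221, 259 and 284 CPM and in the knockdown 219, 214, 207, 203 and 200.02 CPM. The knockdown libraries lay below all untreated ones, while the 7 day libraries overlapped them. COL5A1 fell in the knockdown by 0.68 ± 0.08 (adjusted p = 1.0e-06) and differed by -0.38 ± 0.08 at 7 days, which was under the threshold on size. A lane term made the value at 7 days -0.64, which passed as a call.

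Its partner COL5A2 had 130.1, 122, 123, 101 and 109 CPM in untreated libraries and 42.9, 37.98, 41.2, 38.4 and 41 CPM at 7 days. It had 115, 128, 124, 119 and 127 CPM at 1.5 h and 82.3, 76.1, 81.8, 90.1 and 81.9 CPM in the knockdown. The 7 day libraries were lowest, the knockdown libraries lay between, and neither group overlapped the untreated one. COL5A2 fell by 1.54 ± 0.06 at 7 days (adjusted p = 2.6e-14) and by 0.51 ± 0.06 in the knockdown (adjusted p = 1.9e-06). Within lane 4, 7 days differed from 1.5 h by -1.61. The knockdown call sat at the threshold on size and was lost with library size alone as scaling (-0.45), with lane as a term (-0.41), or without untreated replicate 1 (-0.46), 2 (-0.49) or 3 (-0.49) or knockdown replicate 2 (-0.48). The ratio of COL5A1 to COL5A2 per kb went from a mean of 1.91 (range 1.61 to 2.38) in untreated cells to 4.25 (3.58 to 4.61) at 7 days, and was 1.69 in the knockdown. COL5A2 lies beside COL3A1 on chromosome 2, with 19149 bases between their bounds.

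COL5A3, a further type V chain that can replace a partner in some tissues, was much less abundant. It had 2.46, 2.24, 3.23, 2.93 and 3.09 CPM in untreated libraries and 0.907, 1.15, 1.79, 1.67 and 2.01 CPM at 7 days. It had 3.56, 3.29, 2.503, 2.99 and 2.35 CPM at 1.5 h and 1.85, 1.55, 2.06, 1.10 and 0.957 CPM in the knockdown. The 7 day and knockdown libraries all lay below the untreated range. COL5A3 fell by 0.89 ± 0.21 at 7 days (adjusted p = 8.2e-04) and by 0.87 ± 0.21 in the knockdown (adjusted p = 0.00222), the latter call lost with lane as a term although the value was -1.34.

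Type XI collagen is the cartilage counterpart of type V and is also made by bone-forming cells. COL11A1 had 149, 155, 151, 121 and 175 CPM in untreated libraries and 89.3, 93.7, 90.9, 94.7 and 93.2 CPM at 7 days. It had 130.4, 152, 155, 146 and 153 CPM at 1.5 h and 160.5, 150.5, 161, 165 and 168.1 CPM in the knockdown. Only the 7 day libraries stood apart, all below the rest. COL11A1 fell by 0.70 ± 0.07 at 7 days (adjusted p = 2.4e-08), and in the knockdown the log2 fold change was 0.10 ± 0.07. Its partner COL11A2 had 10.5, 11.01, 9.68, 9.56 and 9.23 CPM in untreated libraries and 8.28, 12.1, 9.08, 9.92 and 10.8 CPM at 7 days. It had 9.68, 11.5, 12.8, 10.4 and 10.1 CPM at 1.5 h and 11.1, 10.3, 11.9, 10.3 and 9.64 CPM in the knockdown. These groups overlapped throughout, with a log2 fold change of 0.00 ± 0.10 at 7 days, and COL11A2 was called in no comparison. Whether the pair responds differently was not tested.

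The 2 fibrillar collagens that rose at 7 days were COL24A1 and COL27A1. COL24A1, a chain found in developing bone, had counts of 32, 27, 35, 25 and 24 in untreated libraries and 90, 62, 97, 106 and 93 at 7 days. All 7 day libraries were above all untreated ones, and COL24A1 rose by 1.65 ± 0.17 (adjusted p = 2.3e-08), with 1.61 against 1.5 h within lane 4. COL27A1, a chain of cartilage and growth plate, had 31.6, 33.4, 34.7, 27.2 and 60.4 CPM in untreated libraries and 62.95, 67.4, 65.9, 70.3 and 64.3 CPM at 7 days. Untreated replicate 5 was well above the rest of its group, yet below every 7 day library. COL27A1 rose by 0.83 ± 0.13 at 7 days (adjusted p = 1.6e-05). Fitted with lane, the log2 fold change of COL27A1 was 0.11 and the call was lost, while without untreated replicate 5 it was 1.04. Within lane 4, 7 days differed from 1.5 h by 0.75, and within lane 5 from the knockdown by 1.01, the latter from a single knockdown library. In the knockdown COL27A1 was not called, at -0.19, but was with lane as a term, at -0.90. COL2A1, the main collagen of cartilage, had between 2 and 13 counts in a library and did not pass the filter.

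**Figure D3:**
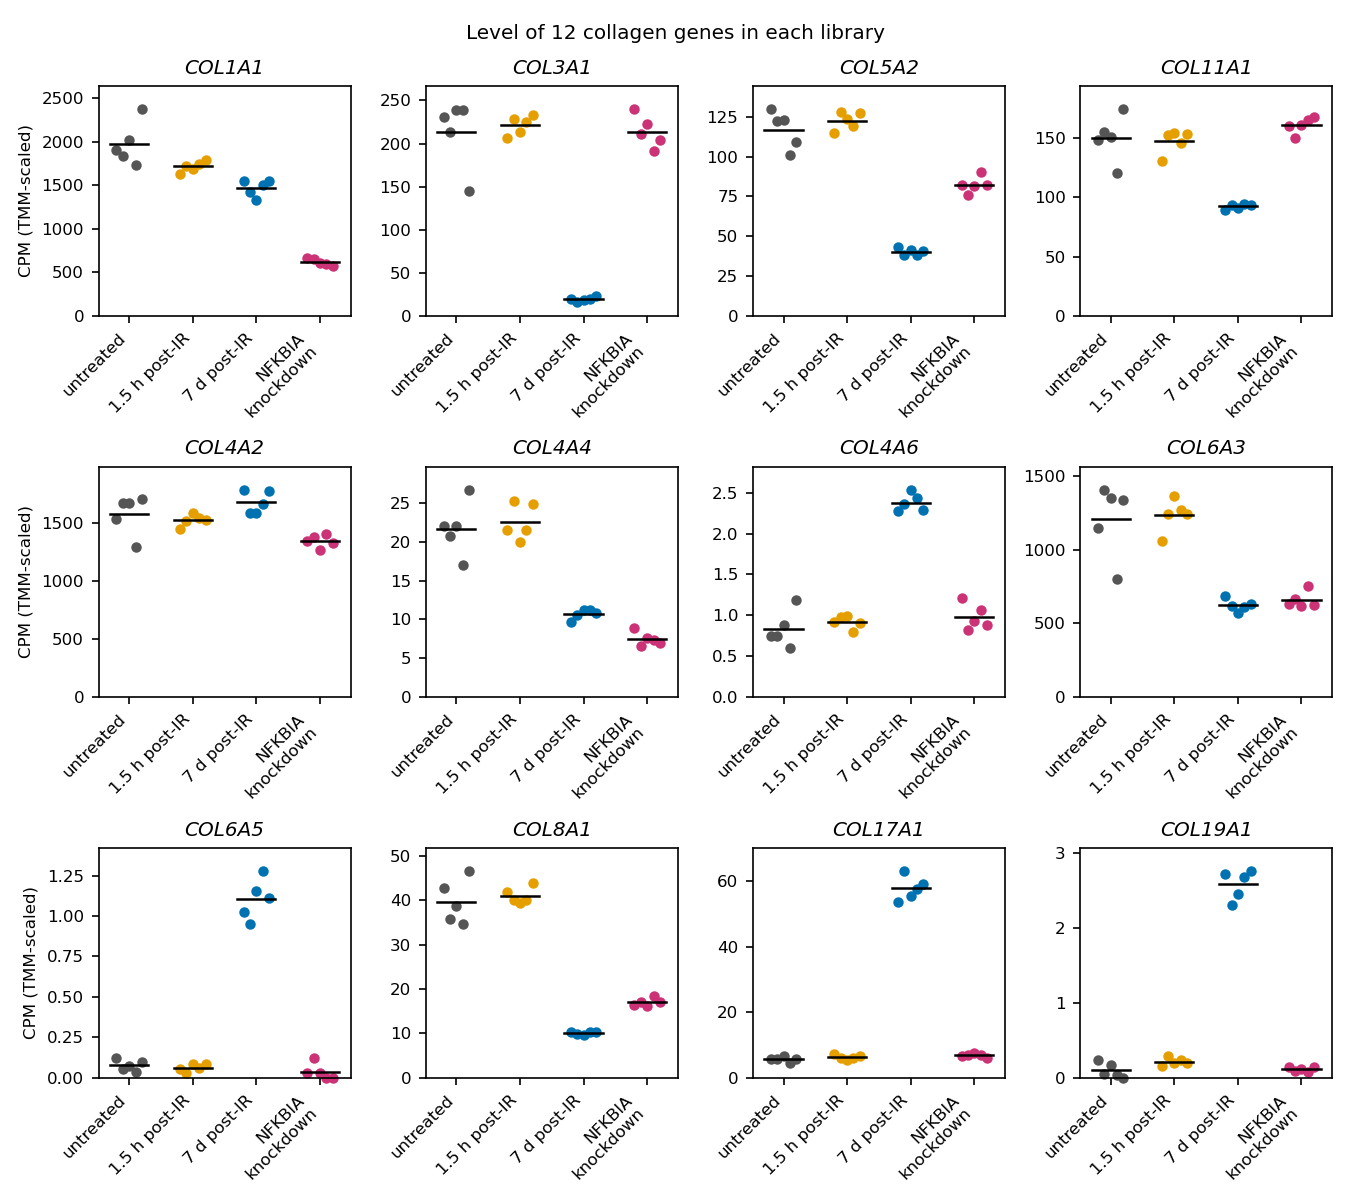
CPM of 12 collagen genes in each of the 20 libraries, with the group mean as a line and each vertical axis starting at 0. COL3A1 at 7 days and COL1A1 in the knockdown lie clear of the other groups.

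Type IV collagen is encoded by 3 pairs of genes, each pair lying head to head on a chromosome and sharing the stretch between its start sites. COL4A1 and COL4A2 give the trimer of nearly all basement membranes. COL4A1 had 410.4, 428, 436, 333 and 421 CPM in untreated libraries and 376, 418, 417, 414 and 423 CPM at 1.5 h. It had 406, 366, 344, 383 and 409 CPM at 7 days and 349.9, 346, 317, 347 and 315 CPM in the knockdown. Every group overlapped the untreated one, with untreated replicate 4 lowest in its group. COL4A2 had 1529, 1667, 1673, 1287 and 1702 CPM in untreated libraries and 1445, 1514, 1579, 1537 and 1522 CPM at 1.5 h. It had 1782, 1583, 1585, 1660.2 and 1775 CPM at 7 days and 1342, 1375, 1267, 1400.2 and 1326 CPM in the knockdown. Here too each group overlapped the untreated libraries. The log2 fold changes of COL4A1 and COL4A2 were -0.09 and 0.09 at 7 days and -0.28 and -0.23 in the knockdown, with adjusted p of 0.00236 and 0.00753 for the latter, and none passed the threshold on size. The ratio of COL4A1 to COL4A2 per kb was 0.338 (range 0.324 to 0.351) in untreated cells and 0.298 (0.285 to 0.303) at 7 days, ranges that did not overlap. In the annotation the bounds of these genes overlap on chromosome 13.

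COL4A3 and COL4A4 encode chains of the specialised basement membranes of kidney, lung and inner ear. COL4A4 had 22.1, 20.7, 22.1, 17 and 26.7 CPM in untreated libraries and 8.92, 6.52, 7.65, 7.29 and 6.91 CPM in the knockdown. It had 21.5, 25.2, 20, 21.5 and 24.9 CPM at 1.5 h and 9.68, 10.5, 11.2, 11.3 and 10.8 CPM at 7 days. Knockdown libraries were lowest, 7 day libraries just above them, and both were below every untreated and 1.5 h library. COL4A4 fell by 1.54 ± 0.10 in the knockdown (adjusted p = 4.1e-10) and by 1.02 ± 0.10 at 7 days (adjusted p = 2.0e-08). Within lane 4, 7 days differed from 1.5 h by -1.19. Between 7 days and knockdown the difference was 0.52 ± 0.11, a call lost with lane as a term (0.32) or without 7 day replicate 3 (0.48) or 4 (0.48) or knockdown replicate 2 (0.45), 4 (0.49) or 5 (0.48).

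COL4A3 was far less abundant than COL4A4. Counts of COL4A3 were 9, 11, 21, 9 and 12 in untreated libraries and 2, 1, 0, 4 and 4 in the knockdown. They were 19, 21, 17, 13 and 9 at 1.5 h and 18, 19, 18, 15 and 18 at 7 days. No knockdown library reached the lowest untreated one. COL4A3 fell in the knockdown by 2.38 ± 0.44 (adjusted p = 2.0e-04), and its summed counts there were 0.183 of those in untreated cells after scaling (exact 95% Poisson interval 0.0871 to 0.351, which covers counting error only). With lane as a term the value was -2.39 and the call was lost. At 7 days COL4A3 differed by 0.51 ± 0.28 and was not called, whereas it was higher than in the knockdown by 2.89 ± 0.41. Both genes of the pair were lower in the knockdown, so the sequence around their starts is shown. The windows are 300 bases from RefSeq on GRCh38.p14, at chr2:227164374-227164673 on the plus strand for COL4A3 and chr2:227164156-227164455 on the minus strand for COL4A4, and they overlap. Capitals mark matches on either strand to any of 4 short motifs. One was the TATA box, searched as TATAAA. Another was the CCAAT box, by those letters. The GC box was searched as GGGCGG. The kB pattern, a loose form of the site that NF-κB proteins bind, was searched as GGNNTTTCC.
COL4A3: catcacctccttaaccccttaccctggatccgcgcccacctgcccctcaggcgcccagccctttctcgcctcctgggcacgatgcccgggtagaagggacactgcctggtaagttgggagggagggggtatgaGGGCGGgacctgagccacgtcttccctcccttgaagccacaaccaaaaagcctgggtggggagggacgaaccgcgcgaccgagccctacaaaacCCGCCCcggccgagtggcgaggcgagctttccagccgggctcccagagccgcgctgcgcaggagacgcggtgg
COL4A4: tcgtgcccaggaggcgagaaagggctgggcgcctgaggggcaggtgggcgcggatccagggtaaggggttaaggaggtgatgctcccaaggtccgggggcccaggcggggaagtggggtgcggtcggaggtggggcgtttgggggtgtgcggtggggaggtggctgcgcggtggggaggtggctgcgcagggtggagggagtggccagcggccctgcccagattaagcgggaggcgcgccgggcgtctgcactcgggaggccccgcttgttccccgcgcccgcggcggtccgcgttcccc
The COL4A3 window held 2 GC boxes, and the COL4A4 window held none of these letters in order. Their bases were 67.7% and 74% G or C, beside a median of 58.7% over all 35116 windows.

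COL4A5 and COL4A6 form the last pair, on the X chromosome, and supply chains of kidney, skin and smooth muscle basement membranes. COL4A5 had 24.3, 29.4, 27.05, 20.8 and 21.7 CPM in untreated libraries and 41.1, 43.6, 39.5, 42.7 and 43.5 CPM at 7 days. It had 24.9, 28.1, 29.8, 27.3 and 28.7 CPM at 1.5 h and 32.1, 28.9, 34.4, 35.7 and 32.5 CPM in the knockdown. All 7 day libraries were above all others, and the knockdown libraries overlapped the upper end of the untreated ones. COL4A5 rose by 0.77 ± 0.08 at 7 days (adjusted p = 4.5e-08), and the knockdown value of 0.40 ± 0.08 was under the threshold on size. COL4A6 had 0.742, 0.747, 0.876, 0.593 and 1.19 CPM in untreated libraries and 2.28, 2.37, 2.54, 2.43 and 2.29 CPM at 7 days. It had 0.915, 0.9798, 0.984, 0.791 and 0.906 CPM at 1.5 h and 1.21, 0.819, 0.927, 1.06 and 0.886 CPM in the knockdown. Again the 7 day libraries were all above the rest. COL4A6 rose by 1.55 ± 0.13 (adjusted p = 2.0e-09), with 1.39 against 1.5 h within lane 4 and 0.97 against the knockdown within lane 5. In the knockdown COL4A6 differed by 0.27 ± 0.15.

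Since COL4A5 and COL4A6 rose together at 7 days, their windows are given in the same way, from RefSeq on GRCh38.p14. The COL4A5 window is chrX:108439588-108439887 on the plus strand. COL4A6 has a pair of start sites in the table, and the one that overlaps the COL4A5 window is chrX:108439409-108439708 on the minus strand.
COL4A5: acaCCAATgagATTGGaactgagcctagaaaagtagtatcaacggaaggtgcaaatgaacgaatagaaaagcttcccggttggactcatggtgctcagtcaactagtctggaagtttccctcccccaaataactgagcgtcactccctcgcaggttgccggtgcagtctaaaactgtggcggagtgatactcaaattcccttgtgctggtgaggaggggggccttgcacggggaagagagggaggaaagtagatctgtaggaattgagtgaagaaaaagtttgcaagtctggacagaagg
COL4A6: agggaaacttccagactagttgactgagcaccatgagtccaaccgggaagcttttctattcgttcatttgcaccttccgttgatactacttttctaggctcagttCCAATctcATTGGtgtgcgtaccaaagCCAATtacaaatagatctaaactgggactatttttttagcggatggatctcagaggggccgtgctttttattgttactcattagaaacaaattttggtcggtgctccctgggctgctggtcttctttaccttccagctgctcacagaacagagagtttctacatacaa
They held 2 and 3 CCAAT boxes and were 49.3% and 43.7% G or C. Both boxes of the COL4A5 window lie in the overlap, so they are counted again in the COL4A6 window. The other COL4A6 window held 1 GC box and none of the other motifs, at 50% G or C. Of all windows, 11.5% held a TATA box, 34.6% a CCAAT box, 45% a GC box and 6.26% the kB pattern. Windows were found for 31 of the 43 collagens, 43 windows in all, of which 8, 14, 24 and 2 held these in turn. The 2 with the kB pattern belong to COL15A1 and COL7A1. A match describes the letters only, and says nothing about binding.

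**Figure D4:**
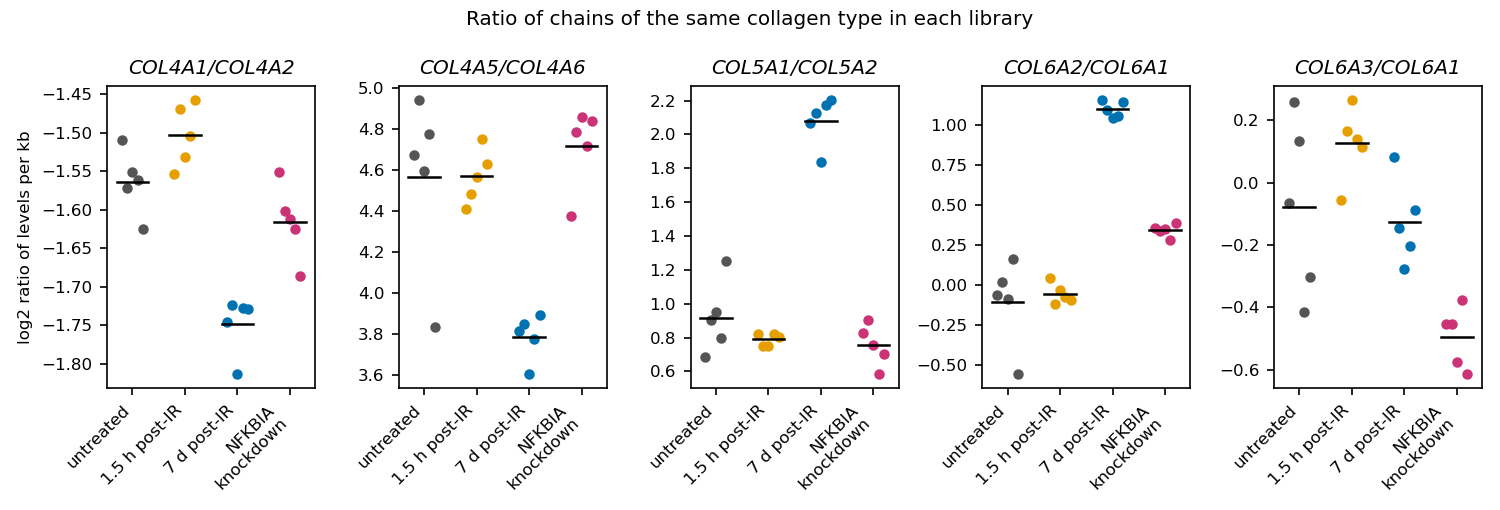
Log2 ratio of the level per kb for pairs of chains in each of the 20 libraries, with the group mean as a line and a separate vertical axis for each pair. COL5A1 over COL5A2 and COL6A2 over COL6A1 are highest at 7 days.

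Type VI collagen forms beaded filaments around cells, from trimers with a COL6A1, a COL6A2 and a COL6A3 chain. COL6A1 had 327, 319.9, 335, 289.7 and 449 CPM in untreated libraries and 175, 185, 188, 192 and 183 CPM at 7 days. It had 298, 302, 309.5, 314 and 312 CPM at 1.5 h and 234, 248, 249.7, 266 and 259 CPM in the knockdown. Libraries of 7 days were lowest and knockdown libraries next, both below every untreated library, where replicate 5 was far above the rest. COL6A1 fell by 0.90 ± 0.08 at 7 days (adjusted p = 3.3e-09), and by 0.80 without untreated replicate 5. In the knockdown the log2 fold change was -0.45 ± 0.08, under the threshold on size, and with lane as a term it was -1.04 and called.

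COL6A2, which lies next to COL6A1 on chromosome 21, had 315, 326, 318, 326 and 308 CPM in untreated libraries and 395, 399, 391, 402 and 407 CPM at 7 days. It had 310.0, 281, 305, 299.7 and 295 CPM at 1.5 h and 301, 317, 321, 327 and 341 CPM in the knockdown. The 7 day libraries were all above the untreated ones, by 0.32 ± 0.04 (adjusted p = 6.6e-07), which is under the threshold on size. The ratio of COL6A2 to COL6A1 per kb was 0.942 (range 0.681 to 1.12) in untreated cells, 2.14 (2.06 to 2.23) at 7 days and 1.27 (1.22 to 1.31) in the knockdown.

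COL6A3, the longest of the chains, had 1147, 1405, 1349, 798 and 1337 CPM in untreated libraries and 683, 616, 570.0, 612 and 631 CPM at 7 days. It had 1055, 1244, 1367, 1268 and 1240.4 CPM at 1.5 h and 627, 666, 616, 754 and 622 CPM in the knockdown. The 7 day and knockdown libraries were below all untreated libraries, the lowest of which, replicate 4, came close. COL6A3 fell by 0.96 ± 0.11 at 7 days (adjusted p = 2.4e-07) and by 0.88 ± 0.11 in the knockdown (adjusted p = 2.8e-06). Per kb, COL6A3 over COL6A2 went from 1.04 in untreated cells to 0.428 at 7 days and 0.561 in the knockdown. COL6A3 over COL6A1 was 0.961 (range 0.749 to 1.195) in untreated cells and 0.919 (0.825 to 1.058) at 7 days, ranges that overlapped, and 0.711 in the knockdown. At 7 days COL6A2 was thus the chain above the others per length.

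COL6A5 and COL6A6 encode chains that can stand in for COL6A3 in skin and other tissues, and lie side by side on chromosome 3. Counts of COL6A5 were 4, 2, 3, 1 and 2 in untreated libraries and 35, 29, 40, 42 and 31 at 7 days. They were 2, 1, 3, 2 and 3 at 1.5 h and 1, 4, 1, 0 and 0 in the knockdown. Outside the 7 day group no library had more than 4 counts. COL6A5 rose by 3.82 ± 0.29 at 7 days, a ratio of summed counts of 14.9. Against the knockdown it was higher by 4.71 ± 0.34, and by 5.77 without knockdown replicate 2, which held 4 of the 6 counts of that group. The ratio of summed counts there was 28.7. Within lane 4, 7 days differed from 1.5 h by 2.99, and with lane as a term 7 days differed from untreated cells by 2.96 ± 1.22.

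Counts of COL6A6 were 7, 4, 6, 0 and 10 in untreated libraries and 44, 41, 45, 31 and 42 at 7 days. They were 9, 8, 7, 3 and 6 at 1.5 h and 5, 3, 1, 2 and 4 in the knockdown. All 7 day libraries stood above all others. COL6A6 rose by 2.88 ± 0.33 at 7 days, a ratio of summed counts of 7.57, or by 2.20 ± 0.79 with lane as a term. It was higher than in the knockdown by 3.67 ± 0.38, or by 3.04 ± 0.56 with lane as a term.

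Type VIII collagen forms hexagonal nets under endothelium and in the cornea. COL8A1 had 42.8, 35.8, 38.7, 34.5 and 46.6 CPM in untreated libraries and 10.3, 9.89, 9.52, 10.3 and 10.2 CPM at 7 days. It had 41.8, 40.1, 39.3, 40.04 and 43.9 CPM at 1.5 h and 16.4, 17.1, 16.2, 18.5 and 17.1 CPM in the knockdown. The 7 day libraries were lowest and the knockdown libraries next, with wide gaps to the untreated and 1.5 h libraries. COL8A1 fell by 1.98 ± 0.07 at 7 days (adjusted p = 2.4e-15) and by 1.22 ± 0.07 in the knockdown (adjusted p = 2.6e-11). Fitted with lane these values were -2.26 and -1.55. Within lane 5, 7 days differed from the knockdown by -0.70.

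Its partner COL8A2 had 4.13, 3.62, 3.73, 4.55 and 1.81 CPM in untreated libraries and 1.11, 1.15, 1.33, 1.096 and 1.396 CPM at 7 days. It had 3.404, 3.95, 3.82, 3.95 and 4.19 CPM at 1.5 h and 3.74, 2.88, 3.35, 3.41 and 2.94 CPM in the knockdown. Untreated replicate 5 was low, yet every 7 day library was below it. COL8A2 fell by 1.58 ± 0.17 at 7 days (adjusted p = 6.3e-08), by 1.74 without untreated replicate 5 and by 0.81 with lane as a term, and its knockdown value was -0.15 ± 0.15. With lane as a term COL8A2 at 1.5 h was called higher at 1.04, for which the cause was not tested. COL10A1, the network collagen of hypertrophic cartilage, had at most 8 counts.

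Fibril-associated collagens sit on the surface of fibrils and have breaks in their helix. COL19A1, a rare member, had counts of 8, 2, 7, 1 and 0 in untreated libraries and 93, 70, 85, 88 and 77 at 7 days. They were 6, 10, 7, 8 and 7 at 1.5 h and 5, 3, 4, 2 and 4 in the knockdown. The 7 day libraries were apart from all others, the 1.5 h libraries were above the knockdown ones, and both of these groups overlapped the untreated one. COL19A1 rose by 4.49 ± 0.26 at 7 days, a ratio of summed counts of 23.1. Within lane 4, 7 days differed from 1.5 h by 3.21. A lane term raised the value at 7 days to 9.33 ± 1.42. That fit ties untreated cells to the rest through untreated replicate 5, which had 0 counts of COL19A1. So 9.33 does not measure the size of the change. At 1.5 h COL19A1 was not called, but without untreated replicate 1 it was, at 1.40 ± 0.42 (adjusted p = 0.0221), which brings the count of collagens that rose at 1.5 h from 1 to 2. Its gene shares 70 exon bases with LMBRD1 on the other strand, and though the libraries were stranded, it is not stated whether the counting used strand, so some counts may belong to that gene.

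COL21A1, made by smooth muscle among other tissues, had counts of 6, 10, 5, 5 and 3 in untreated libraries and 19, 11, 14, 14 and 10 in the knockdown. They were 7, 8, 11, 6 and 11 at 1.5 h and 28, 12, 14, 23 and 17 at 7 days. The 7 day and knockdown libraries were all above all untreated libraries. COL21A1 rose by 1.69 ± 0.28 at 7 days (adjusted p = 2.1e-05) and by 1.26 ± 0.30 in the knockdown (adjusted p = 0.00187), where it was the 1 collagen that rose, with a ratio of summed counts of 2.42 (interval 1.55 to 3.88). With lane as a term both calls were lost, at 2.04 and 2.02 with wider errors.

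Type IX collagen coats cartilage fibrils and needs chains from 3 genes. COL9A2 had 59.7, 62.6, 57.6, 66.6 and 48.3 CPM in untreated libraries and 40.8, 46.4, 42.3, 37.3 and 36.7 CPM at 7 days. It had 54.1, 54.3, 57.9, 56.98 and 54.1 CPM at 1.5 h and 42.8, 43.7, 44.7, 49.1 and 48.2 CPM in the knockdown. All 7 day libraries were below all untreated ones, by a narrow margin over untreated replicate 5. COL9A2 fell by 0.54 ± 0.07 at 7 days (adjusted p = 2.2e-06), a call lost with library size alone (-0.49) and with lane as a term (-0.15). Its partners had few counts. Counts of COL9A1 were 1, 0, 0, 1 and 0 in untreated libraries and 2, 3, 2, 1 and 0 at 7 days, and 2, 0, 0, 1 and 2 and 1, 2, 0, 3 and 1 at 1.5 h and in the knockdown. Those of COL9A3 were 7, 6, 11, 6 and 0 in untreated libraries and 10, 13, 10, 17 and 6 at 7 days, and 11, 13, 6, 6 and 12 and 4, 3, 3, 6 and 4 at 1.5 h and in the knockdown. Neither passed the filter. In the fit with no filter COL9A3 was called higher at 7 days than in untreated cells, by 0.87 ± 0.37, and than in the knockdown, by 1.40 ± 0.40, and COL9A1 was called in no comparison. COL9A3 shares 45 exon bases with TCFL5 on the other strand, so the doubt about strand given for COL19A1 holds for its few counts too.

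Of the other fibril-associated collagens, COL12A1, found in tendon and around bone, fell by 0.58 ± 0.10 at 7 days (adjusted p = 2.4e-05), with overlap of its groups through untreated replicate 4. Against 1.5 h, COL12A1 was lower by a log2 fold change of -0.84 ± 0.10, with no overlap. COL16A1, which links fibrils to cells, fell by 0.54 ± 0.07 in the knockdown (adjusted p = 1.6e-06), lost with library size alone (-0.49) or with lane as a term (-0.19). COL14A1 and COL20A1 were called only between treated groups, at 12 to 30 and 5 to 25 counts a library. COL14A1 was higher at 7 days than at 1.5 h by 0.54 ± 0.20 and than in the knockdown by 0.74 ± 0.21, with 0.30 and 0.57 within lanes. The call against 1.5 h was lost without 1.5 h replicate 1 (0.42), 2 (0.45) or 4 (0.44) or 7 day replicate 3 (0.46) or 4 (0.48). Both calls of COL14A1 were lost with lane as a term, at 0.24 ± 0.32 and 0.64 ± 0.38. COL20A1 was higher at 7 days than at 1.5 h by 0.70 ± 0.27 and than in the knockdown by 0.77 ± 0.28, with 0.21 and 0.31 within lanes. Against 1.5 h it lost the call without 1.5 h replicate 1 (0.56), 2 (0.58) or 3 (0.63) or 7 day replicate 2 (0.68) or 4 (0.57). Against the knockdown it did so without 7 day replicate 4 (0.65) or knockdown replicate 2 (0.65) or 5 (0.61). Those of COL20A1 were likewise lost with lane as a term, at 0.18 ± 0.35 and 0.37 ± 0.41. COL22A1, of tissue junctions, was called in no comparison, with -0.30 at 7 days and -0.47 in the knockdown, but with lane as a term it was called lower in the knockdown, at -0.53.

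Membrane-spanning collagens hold cells to their matrix, and COL17A1 (ENSG00000065618) is the one of hemidesmosomes, the anchors of epithelial cells. It had 5.82, 5.73, 6.55, 4.35 and 5.803 CPM in untreated libraries and 53.7, 63.1, 55.5, 57.7 and 59.2 CPM at 7 days. It had 7.21, 6.05, 5.51, 6.005 and 6.68 CPM at 1.5 h and 6.59, 6.94, 7.59, 6.93 and 6.13 CPM in the knockdown. All 7 day libraries were many times above all the others, which overlapped each other. COL17A1 rose by 3.35 ± 0.09 at 7 days (adjusted p = 3.0e-17, higher in 5 of 5 libraries). The value was 3.19 against 1.5 h within lane 4, 3.11 against the knockdown within lane 5, and 3.31 with lane as a term. In the knockdown the log2 fold change was 0.27 ± 0.09. The summed level of 5 epithelial markers was 9.21 to 12.8 CPM in untreated libraries, 3.99 to 4.80 CPM at 7 days and 3.78 to 4.395 CPM in the knockdown. Of these, KRT14 had means of 4.82, 0.735 and 0.491 CPM and EPCAM 3.397, 1.88 and 3.01 CPM in that order, while KRT19 went from 0.16 to 0.606 CPM at 7 days.

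COL25A1, a membrane collagen of neurons and developing muscle, was the 1 collagen that rose at 1.5 h. Counts were 5, 9, 2, 4 and 1 in untreated libraries and 13, 17, 10, 9 and 13 at 1.5 h. They were 50, 32, 44, 35 and 30 at 7 days and 6, 1, 6, 7 and 8 in the knockdown. After scaling every 1.5 h library was above every untreated one, and the 7 day libraries were higher again. COL25A1 rose by 1.39 ± 0.38 at 1.5 h (adjusted p = 0.0129), a ratio of summed counts of 2.66 (interval 1.60 to 4.59). At 7 days it rose by 3.16 ± 0.31, a ratio of 9.16. With lane as a term the value at 1.5 h was 2.85 ± 1.16 and the call was lost, and without untreated replicate 5 it was 1.25 with the call kept. At 7 days the fit with lane gave 4.83 ± 1.11. Within lane 3 the 1.5 h libraries differed from the single untreated library by 1.95. COL13A1, of neuromuscular junctions, was called in no comparison, with 0.16 at 7 days, and COL23A1 had at most 5 counts.

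The last classes are anchoring fibrils and collagens of the basement membrane zone. COL7A1, which forms the fibrils that tie epithelium to the tissue below, rose at 7 days by 0.70 ± 0.09 (adjusted p = 6.6e-07), with all 7 day libraries above all untreated ones. In the knockdown COL7A1 differed by 0.33 ± 0.09, under the threshold on size, and with lane as a term by 0.88, past it. COL15A1 and COL18A1 carry chains of glycosaminoglycan and release fragments that act on vessels. COL15A1 rose by 1.29 ± 0.13 at 7 days (adjusted p = 3.8e-08), though by 0.41 with lane as a term, where the call was lost. It was higher at 7 days than in the knockdown by 1.90 ± 0.14, and by 1.85 within lane 5. In the knockdown COL15A1 fell by 0.61 ± 0.16 (adjusted p = 0.00507), with overlap, and without untreated replicate 5 the value was -0.48 and the call was lost, while with lane as a term it was -1.52. COL18A1 fell by 0.59 ± 0.07 at 7 days (adjusted p = 4.7e-07), lost with lane as a term (-0.42), and by 0.71 ± 0.07 in the knockdown (adjusted p = 1.5e-07). It shares 1401 exon bases with SLC19A1 on the other strand, so its counts are uncertain to that extent unless strand was used in counting. COL28A1, of nerve sheaths, was called in no comparison, with 0.33 at 7 days.

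The other genes of collagen production and turnover were followed through lists. The counts below stand beside 16.7% risen and 14.4% fallen of all genes tested at 7 days, and 5.18% and 7.53% in the knockdown, and no list was tested against these. Prolyl and lysyl hydroxylases and related enzymes modify new chains, and of 14 tested 3 rose (21.4%) and 1 fell (7.14%) at 7 days. P4HA3 rose by 0.82 ± 0.18, PLOD2 by 0.73 ± 0.05, and P3H2 fell by 0.72 ± 0.07. In the knockdown PLOD2 fell by 0.61 ± 0.05 and P4HA1 rose by 0.52 ± 0.07. Of 9 chaperones and export factors, FKBP10 rose by 0.76 ± 0.05 and CREB3L1, an activator of procollagen genes in bone, fell by 1.003 ± 0.29 at 7 days, and FKBP10 rose by 0.52 ± 0.05 in the knockdown. The medians of these lists at 7 days were 0.20 and -0.05, beside 0.01 for all genes.

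Of 14 tested enzymes that trim procollagen and cross-link fibrils, 4 rose (28.6%) and 5 fell (35.7%) at 7 days, and 1 rose (7.14%) and 5 fell (35.7%) in the knockdown. LOXL1, a lysyl oxidase, fell by 2.26 ± 0.07 at 7 days, while TLL2 and ADAMTS14 rose by 2.60 ± 0.11 and 2.03 ± 0.15. In the knockdown TLL1 fell by 1.55 ± 0.22, LOXL4 rose by 1.16 ± 0.07 and ADAMTS2 fell by 0.93 ± 0.09. Some went the other way in the other group, as LOXL4 fell by 1.19 ± 0.07 at 7 days and TLL2 fell by 0.82 ± 0.14 in the knockdown, while TLL1 fell at 7 days too, by 1.62 ± 0.22. Of 10 tested receptors, 2 rose (20%) and 4 fell (40%) at 7 days. The integrin chains ITGA2 and ITGA1 rose by 1.83 ± 0.15 and 1.46 ± 0.06, and ITGA11 fell by 1.49 ± 0.23. ITGA1 also rose in the knockdown, by 0.56 ± 0.06, and ITGA11 fell by 1.18 ± 0.23.

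Of 10 tested collagen-degrading enzymes, 6 rose (60%) and 2 fell (20%) at 7 days. MMP1, the interstitial collagenase, rose by 4.07 ± 0.39 from a mean of 0.0415 CPM to 0.786 CPM, CTSB by 2.12 ± 0.08 and FAP by 1.92 ± 0.07. MMP1 had passed the filter through the 7 day group alone, so its place among the 6 was built into being tested. In the knockdown MMP13 rose by 2.70 ± 0.12 and CTSB by 1.25 ± 0.08, and MMP9 fell by 2.28 ± 0.06, while at 7 days MMP13 fell by 1.21 ± 0.13 and MMP9 by 0.90 ± 0.06. The medians of the list were 0.60 at 7 days and -0.07 in the knockdown. Of 7 tested proteins that organise fibrils, 3 rose (42.9%) and 2 fell (28.6%) at 7 days. THBS2 rose by 2.54 ± 0.22, PRELP by 2.46 ± 0.38, and BGN fell by 1.30 ± 0.15. THBS2 and PRELP, too, had passed the filter through the 7 day group alone. With no filter MMP1, THBS2 and PRELP were called higher at 7 days, by 4.04, 2.505 and 2.43. FN1, the fibronectin gene, fell by 1.24 ± 0.16 in the knockdown and rose by 0.80 ± 0.16 at 7 days. Of 11 genes of TGF-β signalling, a main inducer of collagen genes, 3 fell at 7 days and 3 in the knockdown (27.3% each). TGFB3, TGFB1 and TGFB2 fell by 0.99 ± 0.07, 0.89 ± 0.22 and 0.72 ± 0.09 at 7 days. In the knockdown TGFB2, CCN2 and TGFB1 fell by 0.96 ± 0.09, 0.74 ± 0.08 and 0.65 ± 0.22, where the TGFB1 libraries overlapped the untreated ones. Whether any of these genes bears on the collagen levels was not tested.

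**Figure D5:**
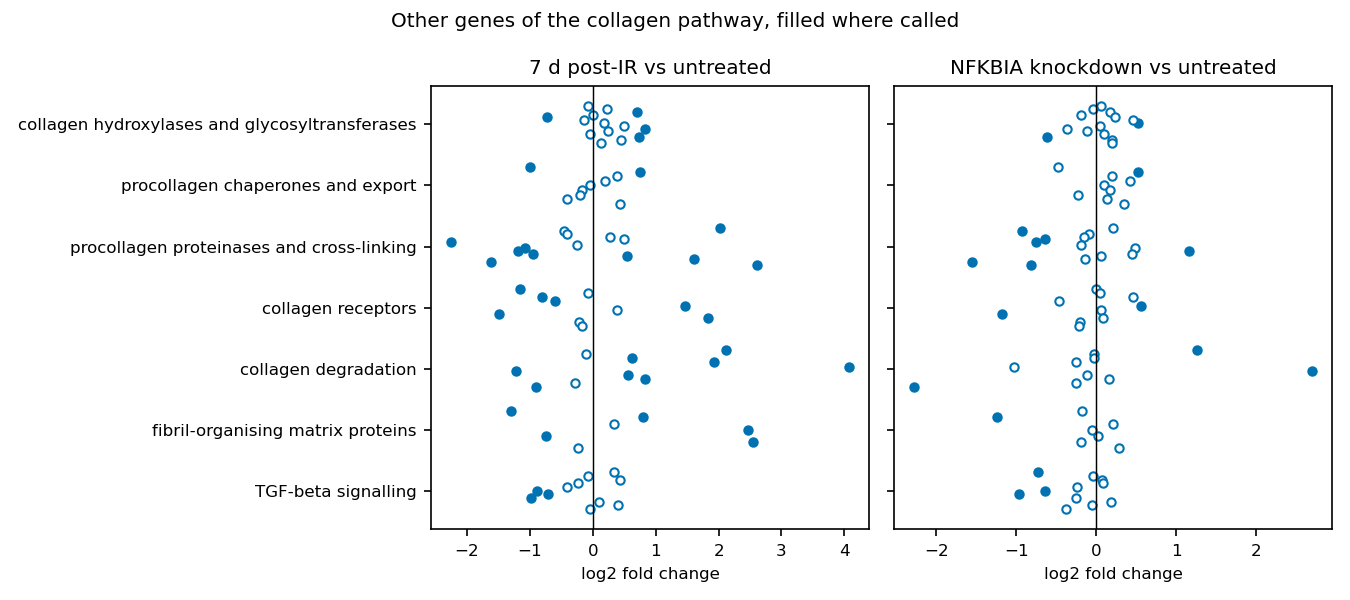
Log2 fold change against untreated cells for the tested genes of 7 lists of the collagen pathway, at 7 days and in the knockdown, filled where called. MMP1 at 4.07 is the highest point at 7 days.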

How the data were processed

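The collagen genes, their classes and the gene lists were chosen with earlier results of these data known. The deposited table gives raw read counts for each gene in 20 libraries, whole counts that the authors made with bcl2fastq, Trimmomatic and STAR 2.4.2a on hg19 by the submitters' notes. The counting tool and strand setting are not stated. It also gives a width for each gene, in bases per the file headers. Libraries held 22535659 to 40390961 counts, and intervals cover counting error only. edgeR 4.0.16 (R 4.3.3, limma 3.58.1) fitted 4 group terms with TMM factors, filterByExpr at a minimum count of 10 and the quasi-likelihood test, with Benjamini-Hochberg over 14992 genes. Genes were called where the adjusted p was under 0.05 and the log2 fold change beyond 0.5 either way. The fit was tested on simulated data. For members shown by library, group means of log2 CPM (prior count 2) were set against every assignment of 5 against 5, a two-sided exact permutation test. Named genes were every collagen; fold changes were given for those called, and every library for the 4 largest changes in each comparison, partner chains and COL1A1, with up to 3 called genes for each pathway list, and NFKBIA in every library. Some list genes are not reported here, and the counts for TGF-β signalling leave them out. The library values of COL24A1 and COL27A1 were added after their values were seen. Alternatives were other scalings, DESeq2 1.42.0, other filters, fits of 2 groups, lane or replicate terms, Bonferroni, no fold threshold and each library left out. Lengths came from GENCODE exons. Figures used matplotlib 3.10.9.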

Additional observations from a re-analysis of the deposited data

Results flagged for a closer look

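In a group of 5 libraries, the gap between the most extreme library and its neighbour, as a share of the group's range, passed the critical value for 6 of 120 groups, and chance alone gives about 1 in 20 groups. The share was 0.723 for COL3A1 CPM in untreated replicate 5, which was lowest, and 0.716 for COL6A1 CPM in the same library, which was highest. It was 0.749 for COL4A1 in untreated replicate 4 and 0.808 for COL4A1 in 1.5 h replicate 1, both lowest. COL6A5 in knockdown replicate 2, highest, gave 0.754. The percent of counts on collagens in 1.5 h replicate 1, lowest, gave 0.829.

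The effect of irradiation differed between 7 days and 1.5 h for 25 collagens, by the test of that difference, 14 higher and 11 lower at 7 days, beside 16.8% and 12.6% of all genes. COL6A5, COL19A1, COL6A6 and COL25A1 had passed the filter through the 7 day group alone, so their difference was built into being tested. With sequencing lane as a factor, COL14A1 and COL20A1 were not called, at 0.243 and 0.184. Log2 differences below 0 were -3.54 for COL3A1, -2.03 for COL8A1, -1.67 for COL8A2, -1.61 for COL5A2, -1.08 for COL4A4, -0.989 for COL6A3, -0.972 for COL5A3, -0.844 for COL12A1, -0.734 for COL6A1, -0.674 for COL11A1 and -0.597 for COL18A1. Among those above 0, COL6A5 had 4.09, COL19A1 3.58, COL17A1 3.20, COL6A6 2.76, COL25A1 1.77, COL24A1 1.70, COL4A6 1.38, COL21A1 1.27 and COL15A1 1.12. COL27A1 had 0.768, COL20A1 0.703, COL7A1 0.614, COL4A5 0.601 and COL14A1 0.542.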

How the results depend on the processing

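Of 82 calls for a collagen in a comparison, 59 were made under each of the 10 alternatives that could fit them and without each of the 20 libraries, 23 were lost under at least 1, and 0 changed direction. Leaving out 1 library ended 7 of them. Of the 10 alternatives, the adjusted p with no fold threshold reused the main fit, so it could not lose a call. Without 1 library in turn, the collagens called higher and lower were 1 to 2 and 0 at 1.5 h, 12 to 13 and 12 to 13 at 7 days, 1 and 10 to 15 in the knockdown, 12 to 15 and 11 to 13 for 7 days against 1.5 h, and 12 to 16 and 5 for 7 days against the knockdown.

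With at least 10 counts in every library, 30 collagens were fitted. The number higher was then 0 at 1.5 h, 7 at 7 days, 0 in the knockdown, 8 against 1.5 h and 8 against the knockdown, beside 1.91%, 13.8%, 4.09%, 14.2% and 13.2% of all genes, and the median log2 fold change was -0.34 at 7 days, -0.25 against 1.5 h and 0.19 against the knockdown. Fewer genes were tested. With sequencing lane as a factor, 4 were higher and 4 lower at 1.5 h, beside 11.9% and 13.6% of all genes, with a median of -0.10, 1 was higher and 10 lower in the knockdown, beside 13.3% and 14%, and the median at 7 days was -0.17, for which the cause was not tested. With Bonferroni, 0 were higher at 1.5 h and 0 in the knockdown, beside 1.33% and 2.37% of all genes, since that threshold is stricter. With an adjusted p alone, 1 was lower at 1.5 h (beside 10.2% of all genes), 4 were higher (10.5%, beside 19.5%) and 17 lower (44.7%, beside 21.1%) in the knockdown, and 23 were higher at 7 days than in the knockdown (60.5%, beside 29.7%), since more genes can pass.

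With the replicate number as a block, the collagens called were 1 higher and 0 lower at 1.5 h, 12 and 12 at 7 days and 1 and 12 in the knockdown, beside 2.07% and 1.24%, 16.9% and 14%, and 5.18% and 7.15% of all genes. Same-numbered libraries of different groups correlated at a median r of -0.0112 after group means were removed, so the numbers carried no pairing that these values show. Library size alone moved the share of higher among called genes in the knockdown from 40.8% to 51.2%, with 1 collagen higher and 9 lower, beside 6.48% and 6.16% of all genes.

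Depth limits collagens with few counts, such as COL1A2, COL4A3, COL6A5, COL6A6, COL19A1 and COL25A1, whose fold changes are imprecise. Lane and group overlap in few libraries, and the fit with lane leans on untreated replicate 5. The knockdown has no scrambled control here. Protein levels and chain assembly were not analysed here.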
